A study of Mus musculus with 8 samples.

Results

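The urokinase system and its serpins were followed here through 7 mouse genes, chosen by symbol from the 24883 gene entries of the table: Plaur, Plau, Plat, Serpine2, Serpinb2, Serpinb5 and Lrp1. All 7 were found, with 1 entry each, and all 7 passed the low-count filter. RNA came from ASZ001, a mouse basal cell carcinoma line in culture that carried a doxycycline-inducible vector with c-FOS or with no insert. The 4 groups held 2 libraries each: c-Fos cells given doxycycline for 24 h and then 5 µM afatinib for 6 h, c-Fos cells given doxycycline and then 10 µM UO126 for 6 h, c-Fos cells given doxycycline and then the vehicle DMSO for 6 h, and empty-vector cells given doxycycline for 24 h. Doxycycline was thus shared by all groups, and the empty-vector label names no vehicle, so an effect of DMSO cannot be told apart from that of c-Fos. Afatinib inhibits EGFR and its related receptor kinases, and UO126 inhibits the MEK kinases that lie below these receptors and activate ERK. Separate cultures are not stated for the replicate libraries, so p-values here measure the spread between libraries, which may be technical. The labels also do not say whether the cells carrying either vector were a clone.

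Urokinase, encoded by Plau, and tissue plasminogen activator, encoded by Plat, are serine proteases that cut plasminogen to plasmin, which digests fibrin and other matrix proteins. The urokinase receptor, encoded by Plaur, is held on the cell surface by a lipid anchor and keeps urokinase there, serpins trap the activators, and the scavenger receptor LRP1 takes protease and serpin complexes into the cell. In skin, urokinase and its receptor are known from keratinocytes at wound edges and from squamous carcinomas.

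Since c-Fos acts in the AP-1 factor, which binds the letters TGANTCA, the promoter windows of the genes were read from RefSeq (build GRCm38.p6), each running from 250 bases before to 50 bases after an annotated start. Windows were listed for 5 of the 7 genes (Plaur, Serpine2, Serpinb2, Serpinb5 and Lrp1), and 3 of the 5 held the AP-1 letters: Plaur, Serpinb2 and Serpinb5. These letters read as the same motif on both strands, and they occur in 7.81% of the 32851 windows of that table. The related letters TGACGTCA, known as CRE, occur in 1.79% of the windows and in none of these genes' windows. The windows of the 3 genes with a match are shown, together with that of Lrp1, which had no match and went down with c-Fos. Of the 3, Plaur and Serpinb2 were called higher with c-Fos and lower with each drug, and Serpinb5 was not called. Capitals mark TGANTCA.
Plaur, chr7:24462233-24462532, plus strand: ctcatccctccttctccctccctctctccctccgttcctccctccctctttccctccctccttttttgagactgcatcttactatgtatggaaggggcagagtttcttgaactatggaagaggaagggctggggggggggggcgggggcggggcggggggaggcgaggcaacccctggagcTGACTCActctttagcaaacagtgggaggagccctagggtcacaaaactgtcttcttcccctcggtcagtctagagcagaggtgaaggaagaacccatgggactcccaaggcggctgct
Serpinb2, chr1:107511173-107511472, plus strand: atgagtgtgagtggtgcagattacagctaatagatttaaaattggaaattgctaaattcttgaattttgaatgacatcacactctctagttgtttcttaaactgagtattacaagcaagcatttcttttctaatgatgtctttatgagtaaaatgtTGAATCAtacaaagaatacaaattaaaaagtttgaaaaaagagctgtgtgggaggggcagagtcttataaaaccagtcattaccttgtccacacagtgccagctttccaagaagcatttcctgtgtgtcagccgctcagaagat
Serpinb5, chr1:106860925-106861224, plus strand: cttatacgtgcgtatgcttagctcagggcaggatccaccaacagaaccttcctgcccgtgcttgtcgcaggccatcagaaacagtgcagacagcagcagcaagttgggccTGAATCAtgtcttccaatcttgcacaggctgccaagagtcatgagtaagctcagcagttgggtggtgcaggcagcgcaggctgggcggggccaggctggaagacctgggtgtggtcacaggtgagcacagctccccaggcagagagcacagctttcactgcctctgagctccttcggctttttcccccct
Lrp1, chr10:127621099-127621398, minus strand: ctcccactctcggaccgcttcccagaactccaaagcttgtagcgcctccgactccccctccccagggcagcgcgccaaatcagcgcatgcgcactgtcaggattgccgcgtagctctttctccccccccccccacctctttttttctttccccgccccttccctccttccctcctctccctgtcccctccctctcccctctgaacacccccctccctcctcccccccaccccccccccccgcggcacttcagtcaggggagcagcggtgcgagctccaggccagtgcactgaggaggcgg
The first capital lies at position -69 from the annotated start in Plaur, at -94 in Serpinb2 and at -140 in Serpinb5. Serpinb2 has a second, overlapping window from a later start in which the same letters lie at -181. A match is a run of letters and does not show that a factor was bound.

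Total counts per library lay between 17858886 and 23075507. All levels are counts per scaled library size (CPM), either for replicates 1 and 2 in that order or as mean ± SD (n = 2). Log2 fold changes carry their SE and the adjusted p of edgeR's quasi-likelihood test across all 12879 genes tested. Fos itself had 1107 and 1080 CPM with afatinib, 813 and 875 CPM with UO126 and 1163 and 1120 CPM with DMSO, against 40.6 and 50.5 CPM in the empty vector. It was lower with UO126 than with DMSO (log2 fold change -0.44 ± 0.080, adjusted p = 0.0015), while the afatinib value of -0.06 ± 0.080 did not pass (adjusted p = 0.57). Reads of the vector's c-FOS and of the cells' own Fos gene were not separated, and the labels do not name the species of the insert. Which of them was lower with UO126 is therefore not known. The part of this lower Fos level in the UO126 results was not tested. The ERK-driven phosphatase gene Dusp6 fell by 2.73 ± 0.096 with afatinib and by 1.98 ± 0.089 with UO126 against DMSO (adjusted p = 4.9e-10 and 1.9e-08). The ERK-driven factor gene Etv4 fell by 1.54 ± 0.094 and 1.65 ± 0.095 (5.0e-08 and 9.1e-08). Spry4, another such gene, held at most 18 counts in any library. All 8 keratinocyte markers were tested, and they summed to 16781 to 17052 CPM with afatinib, 20116 to 21083 CPM with UO126, 18803 to 19587 CPM with DMSO and 17671 to 17765 CPM in the empty vector. Fibroblast markers (4 of 8 tested, Lum and Thy1 at 0) summed to 7.10 to 7.16 CPM with afatinib, 9.38 to 10.7 with UO126, 8.22 to 9.09 with DMSO and 5.02 to 5.29 in the empty vector. Leukocyte markers (2 of 8 tested, Tyrobp and Adgre1 at 0) summed to 8.66 to 9.01 CPM with afatinib, 7.86 to 9.46 with UO126, 6.14 to 6.75 with DMSO and 5.39 to 6.06 in the empty vector. Endothelial markers (3 of 5 tested, Kdr at 0) summed to 146 to 147 CPM with afatinib, 138 to 143 with UO126, 153 to 168 with DMSO and 101 to 110 in the empty vector. Melanocyte markers (2 of 5 tested, Tyr at 0) summed to 40.6 to 45.4 CPM with afatinib, 53.1 to 65.1 with UO126, 44.2 to 47.6 with DMSO and 52.1 to 60.9 in the empty vector. These sums join members with opposite values. With DMSO against the empty vector Flt1 had a log2 fold change of 1.53 (103 against 35.4 CPM) and Pecam1 of -0.28 among the endothelial markers, Col1a2 of 2.91 and Dcn of -1.82 among the fibroblast markers, and Csf1r of 3.18 among the leukocyte markers, where Cd68 was not called. In that comparison the keratinocyte markers Itga6 (1.41), Epcam (0.79) and Krt14 (0.48) were called higher. Trp63 (-0.75) and Krt17 (-0.57) were called lower, and Krt5, Krt15 and Cdh1 were not called. Krt5 and Krt14 made up most of the keratinocyte sum, at 8314 and 7663 CPM on average with DMSO. The part of these markers in the results was not tested.

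Plaur, the urokinase receptor gene, rose the most of the 7 with c-Fos. It stood at 74.0 and 70.7 CPM with DMSO, against 3.98 and 4.27 CPM in the empty vector. The c-Fos libraries lay far above both empty-vector libraries, a 17.5-fold difference (log2 fold change 4.13 ± 0.099, adjusted p = 3.2e-12). Both inhibitors lowered it in part: Plaur had 42.3 and 38.0 CPM with afatinib and 56.2 and 54.7 CPM with UO126, and neither group overlapped the DMSO libraries. Against DMSO the log2 fold change was -0.85 ± 0.075 with afatinib (adjusted p = 1.3e-06) and -0.38 ± 0.073 with UO126 (adjusted p = 0.0016). Afatinib also left less Plaur than UO126 did, by -0.47 ± 0.075 (adjusted p = 0.0013). Plaur still stood above the empty vector under either drug, 9.73-fold with afatinib (log2 3.28 ± 0.10, adjusted p = 3.1e-11) and 13.4-fold with UO126 (3.75 ± 0.099, adjusted p = 9.5e-12). In these bulk libraries fewer expressing cells and less RNA per cell cannot be told apart. The order of the group means was DMSO, UO126, afatinib and empty vector, and every step in it passed the test.

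**Figure D1:**
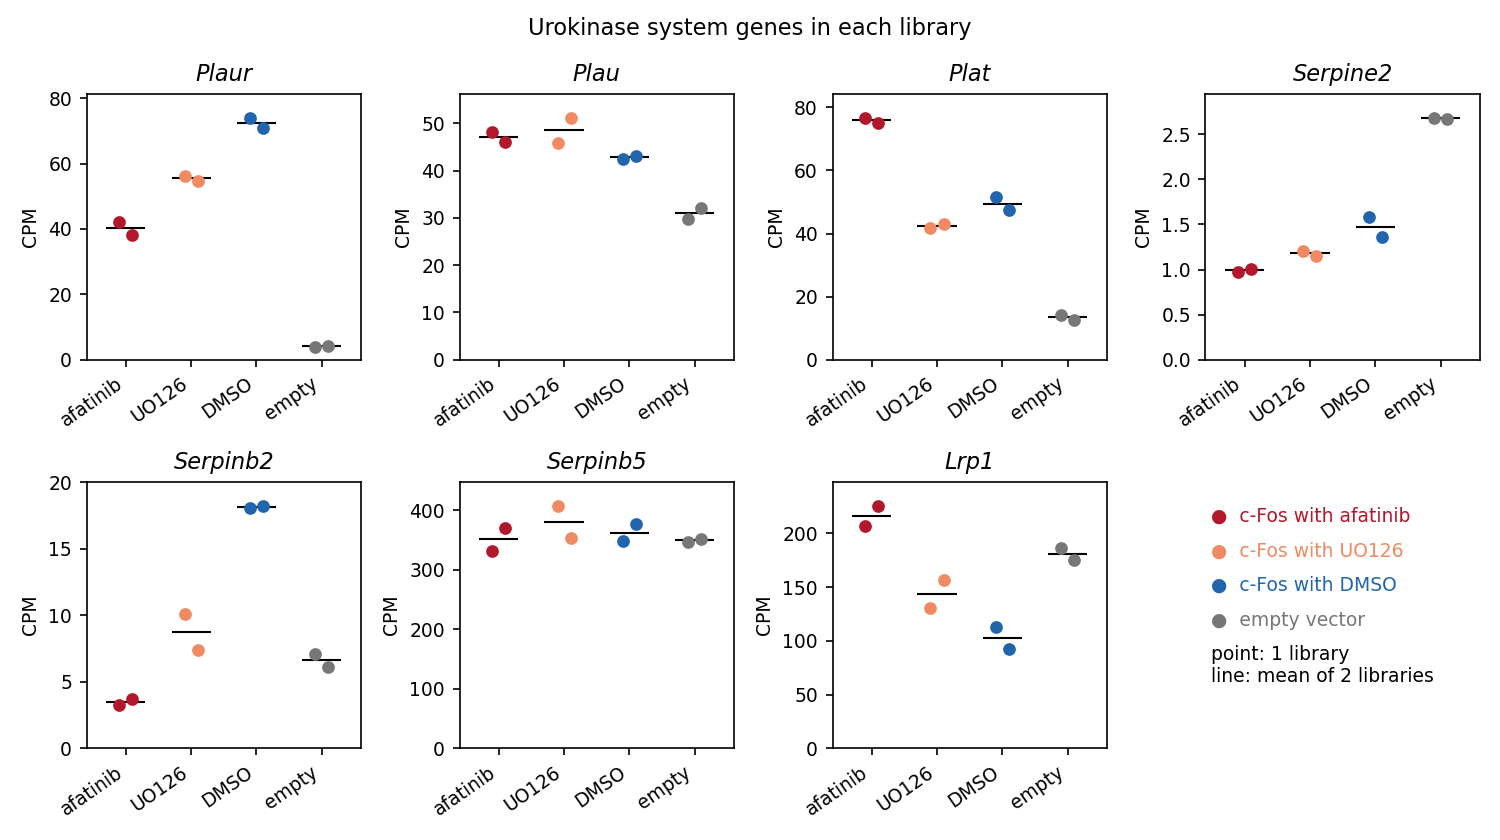
Scaled counts (CPM, linear axes from 0) of the 7 urokinase system genes in each of the 8 libraries, by group. Points are libraries and lines are means of 2. Plaur, Plat and Serpinb2 stand higher with c-Fos and DMSO than with the empty vector, and afatinib places Plat higher but Plaur and Serpinb2 lower than DMSO does.

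The c-Fos rises of the activators were 1.38-fold for Plau and 3.67-fold for Plat, beside 17.5-fold for the receptor. Plau, the urokinase gene itself, had 42.4 and 43.2 CPM with c-Fos and DMSO, against 29.8 and 32.2 CPM in the empty vector. These groups did not overlap, and the rise was 1.38-fold (log2 fold change 0.47 ± 0.081, adjusted p = 4.6e-04). Plau had 48.3 and 46.2 CPM with afatinib and 45.8 and 51.2 CPM with UO126, all above the DMSO libraries. Neither difference from DMSO passed, at 0.14 ± 0.079 with afatinib (95% interval -0.03 to 0.31, adjusted p = 0.17) and 0.18 ± 0.079 with UO126 (0.01 to 0.35, adjusted p = 0.10). The UO126 value passed without UO126 replicate 1 (adjusted p = 0.018), and in no other alternative. Both drug groups remained above the empty vector, by 0.61 ± 0.080 with afatinib (adjusted p = 3.5e-05) and 0.65 ± 0.080 with UO126 (adjusted p = 2.4e-05). Between the drugs the difference was -0.04 ± 0.077, afatinib against UO126, with overlapping libraries (-0.21 to 0.13, adjusted p = 0.79). Urokinase message was therefore highest in the 3 c-Fos groups, whose differences from each other did not pass.

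Plat, the tissue plasminogen activator gene, had 51.6 and 47.4 CPM with c-Fos and DMSO, against 14.2 and 12.7 CPM in the empty vector. It rose 3.67-fold (log2 fold change 1.88 ± 0.085, adjusted p = 1.6e-09). With afatinib it climbed further, to 76.7 and 75.1 CPM, and both libraries lay above the DMSO pair (0.62 ± 0.074, adjusted p = 2.1e-05). With UO126 it had 41.6 and 43.2 CPM, both below the DMSO pair, and the fall of 0.22 ± 0.076 passed narrowly (adjusted p = 0.042). That fall passed in 5 of 16 alternatives. The adjusted p was 0.14 without UO126 replicate 1, 0.28 and 0.079 without DMSO replicate 1 or 2, 0.079 and 0.080 without afatinib replicate 1 or 2, and 0.059 and 0.068 without empty-vector replicate 1 or 2. It was 0.064 with the replicate number as a block, 0.11 with the DESeq2 Wald test, 0.057 with no low-count filter and 0.088 with the 4 compared libraries alone. The direct comparison of the drugs did not depend on these choices: Plat was 1.79-fold higher with afatinib than with UO126 (0.84 ± 0.074, adjusted p = 1.2e-05), and passed in all 16 alternatives. Against the empty vector Plat was 5.63-fold higher with afatinib (2.49 ± 0.083, adjusted p = 7.5e-11) and 3.14-fold higher with UO126 (1.65 ± 0.085, adjusted p = 4.7e-09).

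Of the 3 serpins among the 7 genes, Serpinb2 had the largest changes against DMSO with either drug. It encodes plasminogen activator inhibitor type 2, which blocks urokinase and is largely kept inside the cell. Serpinb2 had 18.1 and 18.2 CPM with c-Fos and DMSO, against 7.10 and 6.12 CPM in the empty vector. The rise was 2.73-fold (log2 fold change 1.45 ± 0.14, adjusted p = 2.6e-06). With afatinib the gene had 3.26 and 3.67 CPM, below every other library, and it fell by 2.38 ± 0.16 against DMSO (adjusted p = 9.4e-08). That level was also below the empty vector, by 0.93 ± 0.18 on the log2 scale (log2 fold change -0.93, adjusted p = 7.2e-04). With UO126 it had 10.0 and 7.38 CPM, between DMSO and the empty vector, and fell by 1.05 ± 0.14 against DMSO (adjusted p = 9.0e-05). The UO126 level did not pass against the empty vector (0.40 ± 0.15, 95% interval 0.07 to 0.72, adjusted p = 0.053). It passed without UO126 replicate 2 (log2 0.63, adjusted p = 0.0014), with no low-count filter (0.013) and with DESeq2 size factors (0.049). Afatinib left less Serpinb2 than UO126, by -1.33 ± 0.17 (adjusted p = 2.4e-04). The order of the means was DMSO, UO126, empty vector and afatinib, with no pass between UO126 and the empty vector.

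Serpine2, which encodes protease nexin-1, a serpin that blocks thrombin, urokinase and tissue plasminogen activator, was the scarcest of the 7, with 20 to 62 deposited counts per library. It had 1.58 and 1.36 CPM with c-Fos and DMSO, against 2.68 and 2.67 CPM in the empty vector. It fell by 0.86 ± 0.22 (adjusted p = 0.0063), a call that ended without DMSO replicate 2 (0.064) and with the DESeq2 Wald test (0.099). Afatinib libraries had 0.974 and 1.01 CPM and UO126 libraries 1.21 and 1.15 CPM, all below the DMSO pair. The differences from DMSO did not pass, at -0.57 ± 0.26 with afatinib (95% interval -1.13 to -0.0015, adjusted p = 0.11) and -0.32 ± 0.25 with UO126 (-0.86 to 0.22, adjusted p = 0.41). At these counts a difference between the drugs was not detectable (-0.25 ± 0.26, -0.82 to 0.32, adjusted p = 0.62). Against the empty vector Serpine2 was lower by 1.43 ± 0.23 with afatinib (log2 fold change -1.43, adjusted p = 1.9e-04) and by 1.18 ± 0.22 with UO126 (-1.18, adjusted p = 7.8e-04).

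Serpinb5 encodes maspin, a serpin of epithelia that does not act as a classical protease inhibitor, and it was abundant and level. It had 331 and 370 CPM with afatinib, 407 and 353 CPM with UO126, 348 and 376 CPM with DMSO and 347 and 352 CPM in the empty vector. The libraries of the c-Fos groups overlapped each other, and none of the 6 comparisons passed. With DMSO against the empty vector the log2 fold change was 0.05 ± 0.077, with a 95% interval of -0.11 to 0.22 (adjusted p = 0.63), below the 0.47 of Plau. The value with UO126 against the empty vector, 0.12 ± 0.077 (adjusted p = 0.24), passed without UO126 replicate 2 (0.25, adjusted p = 0.011). Its promoter window shown above holds the same 7 letters, TGAATCA, as that of Serpinb2, whose message rose. Whether these letters act in either gene was not tested.

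Serpinb2 and Serpinb5 lie in a run of 12 serpin genes on chromosome 1, in the order of the RefSeq annotation from Serpinb5 to Serpinb8, and this run was examined after values were seen. Only 4 of the 12 were tested (Serpinb5, Serpinb2, Serpinb10 and Serpinb8), and the other 8 had at most 4 counts in any library. Serpinb10, the next gene after Serpinb2, had 1.51 and 1.83 CPM with afatinib and 2.95 and 2.72 CPM with UO126, against 13.3 and 15.1 CPM with DMSO. It fell by 3.07 ± 0.16 with afatinib and by 2.32 ± 0.15 with UO126 (adjusted p = 1.6e-08 and 2.2e-07), and both drug levels were also lower than the 6.88 and 8.01 CPM of the empty vector (log2 fold changes -2.14 and -1.39). With DMSO against the empty vector it rose by 0.93 ± 0.13 (adjusted p = 6.7e-05). Serpinb8, the next along, rose by 1.31 ± 0.083 with DMSO against the empty vector (68.9 ± 1.8 CPM against 27.7 ± 3.2 CPM, adjusted p = 3.7e-08). It did not fall with either drug: it rose by 0.32 with afatinib (adjusted p = 0.0045) and was at 0.14 with UO126 (adjusted p = 0.19). Serpinb2, Serpinb10 and Serpinb8 were thus all higher with c-Fos, and with afatinib the first pair fell while Serpinb8 rose. In the GENCODE annotation exons of Serpinb2 overlap exons of Serpinb10. Some reads may therefore be shared by these neighbours, and their values are uncertain to that extent. Members of the family also have related sequences between which reads could be split.

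**Figure D2:**
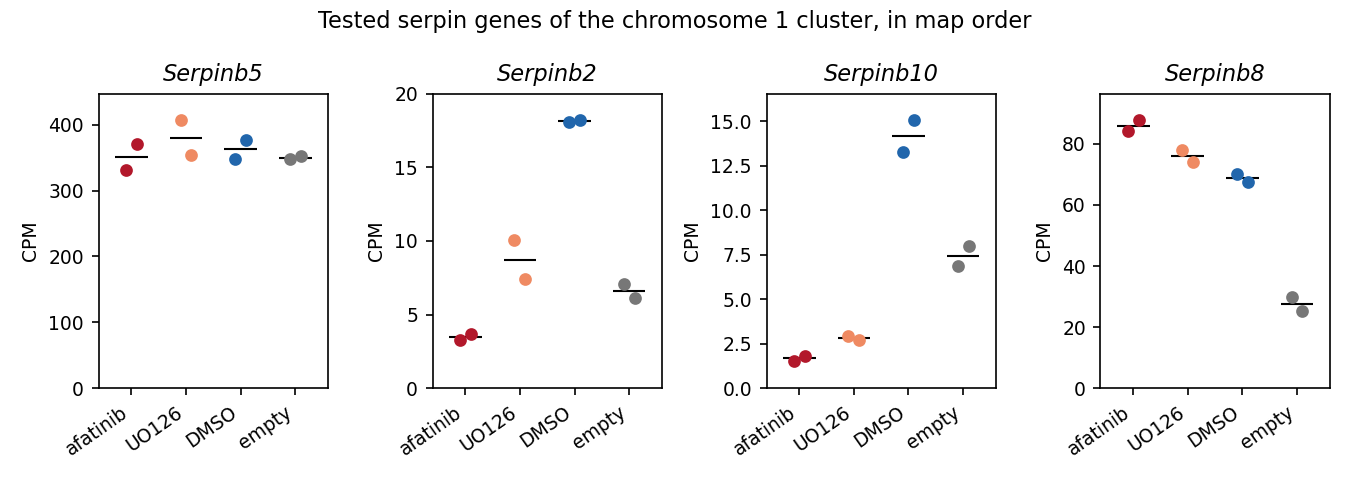
Scaled counts (CPM, linear axes from 0) of the 4 tested serpin genes of the chromosome 1 run, in map order, in each library by group. Points are libraries and lines are means of 2. Serpinb2 and Serpinb10 peak in the DMSO group and are lowest with afatinib, Serpinb8 is high in every c-Fos group, and Serpinb5 is level.

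Lrp1, the endocytic receptor that clears protease and serpin complexes along with many other ligands, ran opposite to Plaur. It had 113 and 92.3 CPM with c-Fos and DMSO, against 186 and 175 CPM in the empty vector. It fell by 0.82 ± 0.11 (log2 fold change -0.82, adjusted p = 1.7e-04). Afatinib libraries had 207 and 225 CPM and UO126 libraries 131 and 157 CPM, all above the DMSO pair. Against DMSO Lrp1 rose by 1.08 ± 0.11 with afatinib (adjusted p = 2.4e-05) and by 0.49 ± 0.11 with UO126 (adjusted p = 0.0073). It was higher with afatinib than with UO126 by 0.59 ± 0.11 (adjusted p = 0.0054), a call that ended without afatinib replicate 2 (0.052). With afatinib both libraries lay above the empty vector, but the difference did not pass (0.26 ± 0.11, 95% interval 0.03 to 0.49, adjusted p = 0.069). It passed in 7 of 16 alternatives. The adjusted p was 0.00445 and 0.00536 without UO126 replicate 1 or 2, 0.022 and 0.021 without DMSO replicate 1 or 2, 0.028 with the DESeq2 Wald test, 0.00205 with no low-count filter and 4.5e-04 with the 4 compared libraries alone. With UO126 Lrp1 stayed below the empty vector (-0.33 ± 0.11, adjusted p = 0.032). That call ended without UO126 replicate 1 (log2 -0.19, adjusted p = 0.13), without empty-vector replicate 1 (0.22) or 2 (0.086), without afatinib replicate 1 (0.052) or 2 (0.054) and, at 0.050032, with the replicate block.

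Set side by side, 4 of the 7 genes were called higher and 2 lower with DMSO against the empty vector, where 21.5% of all tested genes were called higher and 20.7% lower (42.2% in all). With afatinib against DMSO 2 were higher (Plat and Lrp1) and 2 lower (Plaur and Serpinb2), where 21.2% and 21.5% of all genes were called (42.7% in all). With UO126 against DMSO 1 was higher (Lrp1) and 3 lower (Plaur, Plat and Serpinb2), beside 13.9% and 14.7% of all genes (28.6% in all). With afatinib against UO126 2 were higher (Plat and Lrp1) and 2 lower (Plaur and Serpinb2), beside 7.14% and 7.14% (14.3% in all). Against the empty vector 3 were higher and 2 lower with afatinib (21.7% and 23.4% of all genes, 45.1% in all), and 3 higher and 2 lower with UO126 (18.3% and 19.4%, 37.7% in all). The share of the 7 genes called was above that of all genes in each comparison, but 7 genes chosen with results known allow no test of this. The median log2 fold change of the 7 was 0.47 with DMSO against the empty vector, -0.05 with afatinib against DMSO and -0.22 with UO126 against DMSO, beside medians of -0.01, -0.00028 and 0.0021 over all genes. The comparisons with DMSO share its 2 libraries, as those with the empty vector share theirs. Plat was the 1 gene of the 7 that was called in opposite directions with the 2 drugs against DMSO, and its UO126 call was lost in 11 of 16 alternatives.

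**Figure D3:**
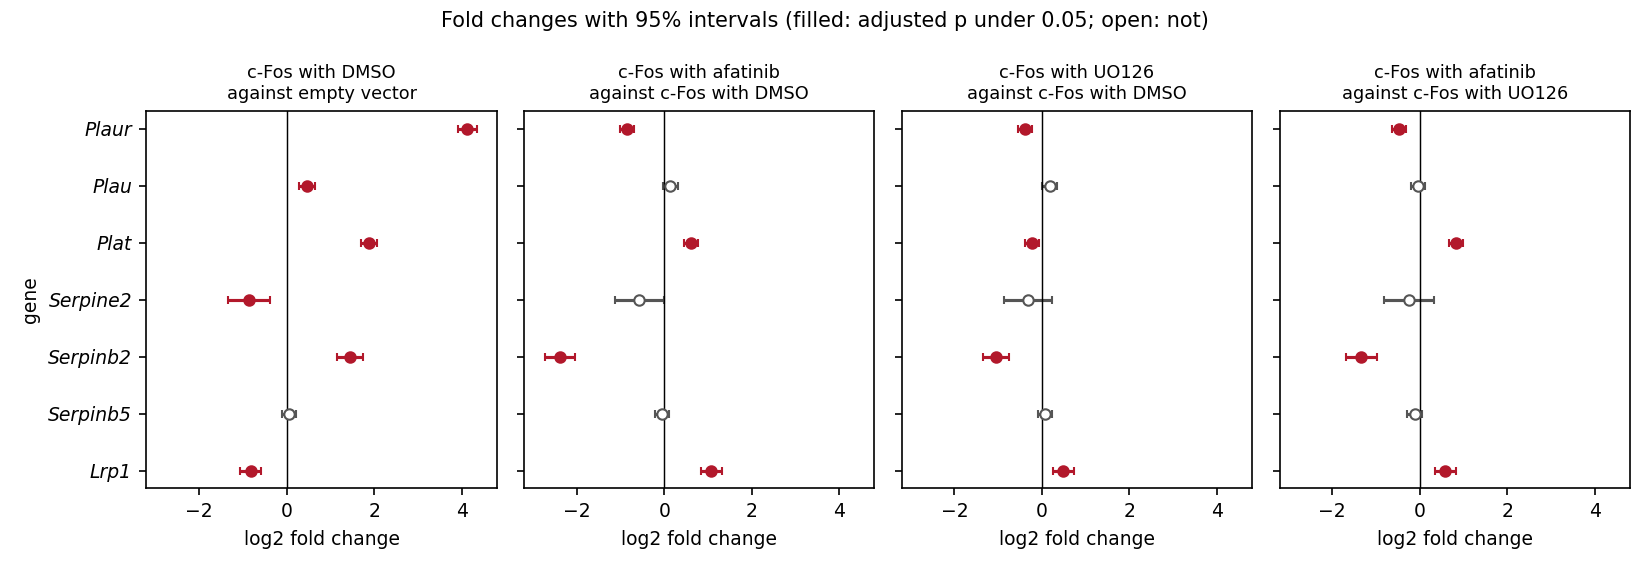
Log2 fold changes of the 7 genes (horizontal axes) in 4 comparisons, with 95% intervals from edgeR's quasi-likelihood fit. Filled points had an adjusted p under 0.05 and open points did not. Plaur has the largest c-Fos change of the 7 at 4.13, Serpinb2 has the largest afatinib change at -2.38, and Serpinb5 lies near 0 in all 4 panels.

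Levels can be compared between genes only per transcript length, and on that scale (CPM per kilobase, with the length given in the table) Serpinb5 was first in every group, at 130.4 ± 10.4 with afatinib, 141 ± 14.0 with UO126, 135 ± 7.3 with DMSO and 129.9 ± 1.3 in the empty vector. Serpine2 was last in every group, between 0.485 with afatinib and 1.31 in the empty vector. Plaur was second with DMSO at 48.3 ± 1.5 and sixth in the empty vector at 2.75 ± 0.14. With DMSO Plaur was thus above Plat at 19.5 ± 1.2, Plau at 18.4 ± 0.24, Serpinb2 at 9.15 ± 0.040 and Lrp1 at 6.92 ± 0.97, and Plat and Plau differed by less than the SD of Plat. In the empty vector the receptor gene lay below its ligand gene Plau at 13.3 ± 0.72, and below Lrp1 at 12.2 ± 0.51, Plat at 5.30 ± 0.41 and Serpinb2 at 3.34 ± 0.35. Afatinib placed Plat second at 29.9 ± 0.46, just above Plaur at 26.8 ± 2.0, and left Serpinb2 at 1.75 ± 0.14. With UO126 Plaur remained second at 37.0 ± 0.71, ahead of Plau at 20.8 ± 1.6 and Plat at 16.7 ± 0.43.

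**Figure D4:**
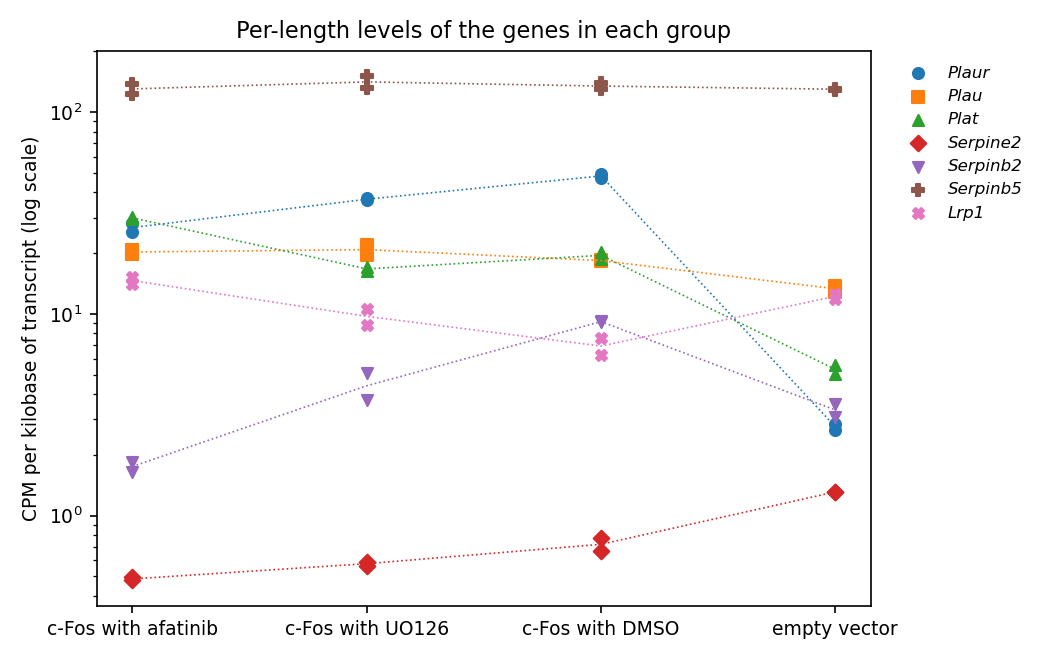
Scaled counts per kilobase of transcript (log axis) of the 7 genes in each library, by group. Symbols are libraries and dotted lines join group means as a guide to the eye. Serpinb5 is highest and Serpine2 lowest in every group, and Plaur is sixth of 7 in the empty vector but second with DMSO.

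A wider list of 34 genes held plasminogen receptors, activators of pro-urokinase and partners of the urokinase receptor and of LRP1, and 24 of them were tested. Plg, the plasminogen gene, had at most 1.5 counts in any library, and Vtn, which encodes vitronectin, a ligand of the urokinase receptor, had 0 in all. With DMSO against the empty vector 9 of the 24 were higher and 6 lower, with afatinib against DMSO 6 were higher and 7 lower, and with UO126 against DMSO 3 were higher and 6 lower. Over all tested genes the shares called higher and lower were 21.5% and 20.7%, 21.2% and 21.5%, and 13.9% and 14.7% in these comparisons. The median log2 fold changes of the list were 0.14, -0.02 and -0.05, beside -0.01, -0.00028 and 0.0021 over all genes. Called changes of at least 1 on the log2 scale, in genes reaching 5 CPM in either group, were found in 2 receptors of the LRP1 family, Vldlr and Lrp8. Vldlr, whose product can bind protease and serpin complexes, moved the same way as Lrp1. It had 52.1 and 49.5 CPM with DMSO, against 155 and 140 CPM in the empty vector, and fell by 1.54 ± 0.070 (adjusted p = 1.7e-09). It rose against DMSO by 1.66 ± 0.070 with afatinib, at 161 and 161 CPM, and by 1.13 ± 0.070 with UO126, at 112 and 110 CPM (adjusted p = 2.1e-09 and 1.8e-07). Lrp8, which encodes a reelin receptor, went the other way, with a rise of 1.23 ± 0.066 with DMSO against the empty vector (130 ± 2.3 CPM against 55.7 ± 0.37 CPM, adjusted p = 7.6e-09). It fell by 1.20 ± 0.066 with afatinib against DMSO, to 56.9 ± 0.96 CPM (adjusted p = 2.1e-08). Vldlr and Lrp8 thus moved in opposite directions in these comparisons.

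Of 25 other serpin genes 12 were tested, with 5 higher and 5 lower with DMSO against the empty vector, 3 higher and 3 lower with afatinib against DMSO, and 2 higher and 3 lower with UO126 against DMSO. Of all tested genes 42.2%, 42.7% and 28.6% were called in these comparisons. A list of 12 tested genes, chosen with results known, allows no test against these shares. The medians of the list were 0.27, -0.12 and -0.0042, beside -0.01, -0.00028 and 0.0021 over all genes. Besides Serpinb8 and Serpinb10, the gene past the same limits was Serpinb1b, which fell by 1.12 ± 0.20 with DMSO against the empty vector (2.50 and 2.61 CPM against 4.89 and 6.31 CPM, adjusted p = 6.4e-04). Its near copy Serpinb1a can share reads with it.

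The genes most like each member were sought among those averaging at least 5 CPM, by the root mean square difference in centred log2 CPM over the 8 libraries, for the 5 members whose group means spanned at least 1 log2 unit. Plau and Serpinb5 spanned 0.64 and 0.12 and were left out. Nearest to Plaur were Il18r1, a cytokine receptor gene (difference 0.16), Vim, an intermediate filament gene (0.19), and S100a4, a calcium-binding protein gene (0.24). Il18r1 averaged 6.52 CPM with afatinib, 10.2 with UO126, 10.2 with DMSO and 0.62 in the empty vector, so it lacked the lower UO126 level of Plaur. Vim (42.9 with UO126, 79.7 with DMSO) and S100a4 (23.2 and 28.6) were lower with UO126. Nearest to Plat were Gpat3, Slc45a3 and Slc6a4, the serotonin transporter gene, at 0.19 each. With UO126 and DMSO they averaged 16.4 and 16.4, 7.38 and 7.29, and 28.2 and 25.2 CPM, so none had a lower mean with UO126. Plat did, by a small fall whose call was lost in 11 of 16 alternatives. Nearest to Serpinb2 was Maff, a small Maf transcription factor gene, at 0.29, with 3.27 CPM on average with afatinib, 6.76 with UO126, 21.2 with DMSO and 7.95 in the empty vector. It was followed by Snhg12 (0.36) and Oraov1 (0.38), so by this measure no gene lay as near to Serpinb2 as Il18r1 did to Plaur. Nearest to Serpine2 were Rnd3 (0.10), Tmtc2 (0.11) and Nxn (0.11). Nearest to Lrp1 were Mir546 (0.090), the phosphatase gene Ctdsp2 (0.091) and the kinase gene Fyn (0.10), and Mir546 lies within Ctdsp2 in the RefSeq annotation, so these share reads. All of these values come from the same 8 libraries and describe them.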

How the data were processed

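RNA of 8 libraries was sequenced, and the labels name an RNeasy extraction and Illumina's TruSeq RNA library kit, without strand marking. According to the series design text, the authors used TopHat and then HOMER on transcript isoforms. The submitters' processing notes add mm9 and DESeq2 without versions. The authors made and deposited these values as estimated counts with no normalization, in multiples of 0.5 and with 1 entry per symbol. Of 24909 entries, 26 whose symbols had become dates (0.218% to 0.246% of counts) were left out. Levels per length use the deposited transcript length, whose annotation is not stated. Among the 7 genes only Serpinb2 has exons shared with another gene in GENCODE.

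Counts were rounded and fitted with edgeR 4.0.16 (R 4.3.3): filtering by expression (minimum count 10, minimum total 15), trimmed mean of M-values scaling, and the robust quasi-likelihood test over all 8 libraries with 1 coefficient per group (4 residual degrees of freedom, common biological coefficient of variation 0.0596). Tests were two-sided, with Benjamini-Hochberg adjustment over 12879 genes and calls under 0.05. SEs and 95% intervals came from the F statistic, and for the scarce Serpine2 they can be narrower than the p-value of the test implies. The procedure was tested on simulated counts. Replicate libraries differed by more than sampling noise, and most so in the UO126 pair. The chi-square per degree of freedom was 25.9 with UO126, 9.37 with afatinib, 8.69 with DMSO and 4.95 in the empty vector. All groups share 1 estimate of the spread in this fit, so the UO126 pair also enters comparisons without UO126. Alternatives were DESeq2 1.42.0 size factors or Wald test, no filter (at least 1 count), 5 CPM in 2 libraries, the compared libraries alone, a replicate block, no robust estimation, no Rn45s, and each library left out.

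The members and gene lists were chosen with earlier results of these data known. Named were the 7 members, Fos, Dusp6, Etv4 and Spry4 as checks of the labels, list genes called with a log2 change of at least 1 and at least 5 CPM in 1 of the first 3 comparisons, and the 3 genes most like each member. The serpin run on chromosome 1 was added after values were seen. Some genes of this system are not reported here. Coordinates are those of the RefSeq promoter table, not of the deposited table.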

Additional observations from a re-analysis of the deposited data

How the results depend on the processing

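Each of the 42 results for the 7 genes in 6 comparisons was recomputed under up to 16 alternatives, and 13 changed their call or sign in at least 1 of them. The number of the 7 genes called stayed within 5 to 6 with DMSO against the empty vector and within 3 to 4 with UO126 against DMSO, at 4 with afatinib against DMSO, and within 3 to 4 with afatinib against UO126. It stayed within 4 to 6 and 4 to 7 with afatinib and UO126 against the empty vector. Every sign change came from leaving out a library, in differences that did not pass. Serpinb5 ranged from -0.0022 to 0.13 (log2) with DMSO against the empty vector, from -0.11 to 0.055 with afatinib against DMSO, from -0.020 to 0.17 with UO126 against DMSO and from -0.054 to 0.11 with afatinib against the empty vector. Plau ranged from -0.11 to 0.044 with afatinib against UO126. The cause was not tested. Of 78 called results of the listed genes and label checks, 27 lost their call in at least 1 alternative, among them the rise of Dusp6 with DMSO against the empty vector (adjusted p = 0.16 without DMSO replicate 2 and 0.10 without empty-vector replicate 1).

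The titles give each group replicates 1 and 2. Deviations of same-numbered libraries correlated between -0.19 and 0.11 over 6 pairs of groups. With 2 libraries per group this does not tell whether same-numbered libraries were prepared together. With the replicate block 6, 4, 3 and 4 of the 7 genes were called in the comparisons of DMSO with the empty vector, afatinib with DMSO, UO126 with DMSO and afatinib with UO126, and 5 and 4 with afatinib and UO126 against the empty vector. Over all 12879 genes the block left 5032, 5064, 3232 and 1417 calls in the first 4 of these comparisons and 5385 and 4424 in the others. Over all genes, calls numbered 1839 with afatinib against UO126, 986 with the compared libraries alone, and 835 and 698 without afatinib replicate 1 or 2. With UO126 against DMSO they numbered 3681, and 1881 without DMSO replicate 2. Lower genes with DMSO against the empty vector numbered 2662, and 1691 when DMSO replicate 2 was left out or 1661 when empty-vector replicate 1 was. With afatinib against DMSO all calls numbered 5497, and 3597 without DMSO replicate 2, and lower genes 2772, against 1692 without DMSO replicate 2 and 1749 without afatinib replicate 2. Lower genes with afatinib against the empty vector numbered 3017, against 1984 without afatinib replicate 2 and 1953 and 1986 without the first or the other empty-vector library. With UO126 against the empty vector they numbered 2502, against 1476 and 1577 without those same libraries. Serpine2 did not pass the filter of 5 CPM, and its 20 to 62 counts limit its intervals. With 2 libraries per group, outlying libraries could not be tested for.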
